A study of Oryza sativa with 12 samples.

Results

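The contrast described here is the interaction of cultivar and heat in rice (Oryza sativa) spikelets: the log2 heat effect in BR-IRGA 409 minus the log2 heat effect in IRGA 428, for each gene. All 12 libraries enter it, 3 in each of 4 groups, and it was tested for the 22321 of 57174 listed genes that passed a filter on low counts. The groups were BR-IRGA 409 (labelled heat tolerant) at 38 °C, BR-IRGA 409 at 29 °C, IRGA 428 (labelled heat sensitive) at 38 °C and IRGA 428 at 29 °C. These daytime temperatures were held for 7 h on 3 days at anthesis, in flooded plants moved to growth chambers, and each library was made from spikelets of the middle of the panicle of 2 plants. The label of the 38 °C samples is heat (treated) and that of the 29 °C samples is control.

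Anthesis, when the rice floret opens and sheds its pollen, is the stage at which heat most readily causes sterile spikelets, because anther opening, pollen germination and fertilisation fail at high temperature. Plant cells answer heat by inducing chaperones under heat shock transcription factors, and cultivars differ in how well they set seed after such a day. A positive interaction means that a transcript rose more, or fell less, with heat in BR-IRGA 409 than in IRGA 428, and a negative one the reverse. A spikelet holds anthers, pistil, lodicules and glumes, so in these bulk samples fewer cells of a type and less RNA per cell cannot be told apart. Genes appear in the files under IDs beginning with MH, without names. None of the IDs (0 of 57174) matched the table of rice genes used here, so no function is given, gene lists by function were not tested, and the tissue could not be checked against its marker genes.

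The libraries differed between the groups in ways that run along the contrast. Depth ran from 7.08 to 75.4 M gene counts (reads assigned to genes; M, 1000000). BR-IRGA 409 had 39.0, 45.8 and 75.4 M in heat, against 7.08, 14.95 and 8.08 M in control, and IRGA 428 had 16.5, 20.7 and 27.0 M in heat, against 8.88, 16.4 and 15.8 M in control. Mean log2 depth was higher in heat by 2.43 in BR-IRGA 409 and by 0.667 in IRGA 428. The difference of 1.77 was itself past the threshold (exact two-sided permutation of the cultivar labels within each temperature, 400 arrangements, p = 0.015, adjusted p = 0.0375 over 5 library measures). The permutation takes the cultivars as exchangeable at each temperature, so its p-values are not specific to the interaction. Reads with several alignments, which are not in the gene counts, took 5.00%, 5.11% and 5.34% of BR-IRGA 409 heat libraries, against 3.70%, 3.76% and 3.82% of its control libraries. In IRGA 428 they took 4.12%, 4.62% and 4.90% in heat, against 4.08%, 4.38% and 4.30% in control. The mean share was thus higher in heat by 1.39 percentage points in BR-IRGA 409 and by 0.294 in IRGA 428, a difference of 1.09 (exact permutation p = 0.005, adjusted p = 0.025). That unadjusted p is the smallest that the 400 arrangements can give. The part of depth in the results below was examined by thinning all libraries to the smallest, in a single random draw. The part of reads with several alignments was not tested.

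**Figure D1:**
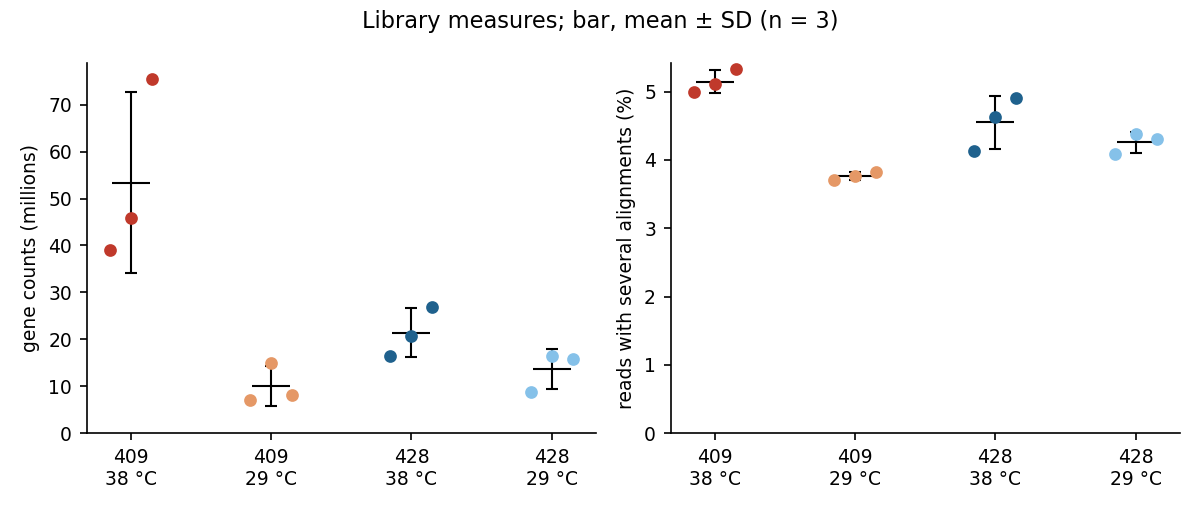
Gene counts (left, M) and percent of reads with several alignments (right) in each library, by cultivar and temperature, with points for libraries and bars for mean ± SD (n = 3). Heat and control libraries are farther apart in BR-IRGA 409 in both measures, by 1.39 percentage points for reads with several alignments, than in IRGA 428, by 0.294.

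The other library measures gave no detected interaction. The 100 most counted genes took 17.6% ± 0.721 (SD, n = 3) of gene counts in heat and 17.5% ± 0.580 in control libraries of BR-IRGA 409, and 17.7% ± 0.402 in heat and 15.9% ± 1.03 in control libraries of IRGA 428 (difference of the heat effects −1.62 points, exact permutation adjusted p = 0.225). Reads outside genes (−0.776 points, adjusted p = 0.685) and genes with a count at equal depth (181 genes, adjusted p = 0.619, exact permutation) also missed the threshold.

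In IRGA 428, 2 libraries of different temperature stood together. Between control 3 and heat 1 the biological coefficient of variation was 0.0792, while pairs of libraries of the same group in this cultivar had 0.115 to 0.369. In BR-IRGA 409 the coefficient was 0.287 to 0.434 between heat and control libraries and 0.119 to 0.242 within a group. The labels were kept as given, and whether control 3, heat 1 or another library carries a wrong label was not tested. The heat effects in IRGA 428, and with them every interaction below, rest on those labels. Results are therefore also given without control 3 and heat 1, which leaves control 1 and control 2, at 0.331 from each other.

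Across all genes, 1 of 22321 (0.00448%) passed the interaction test, at an edgeR quasi-likelihood p, adjusted by Benjamini and Hochberg's method, below 0.05. It was MH12g0324600, a transcript scarce in BR-IRGA 409 that rose there with heat. In IRGA 428 it was more abundant and overlapped between the temperatures. BR-IRGA 409 had 3.54, 3.06 and 3.25 CPM (counts per 1000000 gene counts, on scaled library sizes) in heat, against 0.553, 0.660 and 0.504 CPM in control. IRGA 428 had 24.0, 29.7 and 26.01 CPM in heat, against 23.6, 24.9 and 29.0 CPM in control. The BR-IRGA 409 groups did not overlap, the IRGA 428 groups did, and every IRGA 428 library was above every BR-IRGA 409 library. The log2 heat effect was 2.47 (SE 0.21, edgeR adjusted p = 0.00103) in BR-IRGA 409 and 0.04 (SE 0.13) in IRGA 428, which leaves an interaction of 2.43 (SE 0.24, 95% interval 1.90 to 2.96, edgeR adjusted p = 0.00955). Seen from the other side, BR-IRGA 409 was below IRGA 428 by a log2 difference of −3.02 (SE 0.13) at 38 °C and −5.45 (SE 0.20) at 29 °C.

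The control level of MH12g0324600 in BR-IRGA 409 rested on 18 counts in all (4, 10 and 4), against 494 in its heat libraries. The estimate kept its sign in all 26 alternatives computed for it, at 2.25 to 3.00, and it was called in 17 of them (adjusted p 9.08e-06 to 0.521). The call was lost without IRGA 428 heat 3 (edgeR adjusted p = 0.0613) or without BR-IRGA 409 control 1, 2 or 3 (0.0706, 0.0617 and 0.0745). It was also lost without both IRGA 428 control 3 and heat 1 (0.0762). Replicate numbers correlated between the cultivars at 29 °C, and with the number as a block there the edgeR adjusted p was 0.0549, so that 0 genes were called. With all libraries thinned to the smallest in a single random draw, the interaction was 3.00 (SE 0.36) and still past the threshold (edgeR adjusted p = 0.0253).

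Whether reads of one cultivar had entered libraries of the other was read from genes present in one cultivar alone, a check chosen after the results were seen. Of 23 genes with at least 10 CPM in IRGA 428 control and 0 counts in BR-IRGA 409 control, 16 also had 0 counts in BR-IRGA 409 heat libraries. Their summed level there was 0.0135% of that in IRGA 428 heat libraries. For 10 genes of the opposite kind the summed level in IRGA 428 heat was 0.0244% of that in BR-IRGA 409 heat libraries. Genes that marked one cultivar at 29 °C thus stayed at or near 0 in the heat libraries of the other.

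By the naming rule, MH02g0048000 was the next gene with a positive interaction, and it did not pass the test. BR-IRGA 409 had 4.18, 5.70 and 4.70 CPM in heat, against 1.38, 1.98 and 1.76 CPM in control. IRGA 428 had 21.4, 23.7 and 22.9 CPM in heat, against 22.6, 22.1 and 19.7 CPM in control. The pattern had the form seen for MH12g0324600, with heat and control apart only in the cultivar where the transcript was scarce. The interaction was 1.40 (SE 0.23, edgeR adjusted p = 0.275), with log2 heat effects of 1.48 in BR-IRGA 409 and 0.08 in IRGA 428.

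In edgeR, 0 genes (0.00%) passed with a negative interaction, where 594 had an unadjusted p below 0.05; limma-voom called 0 and DESeq2 22 in this direction. The smallest p-values in this direction belonged to MH10g0388400 and MH01g0511700. MH10g0388400 had 16.8, 19.6 and 19.0 CPM in BR-IRGA 409 heat, against 27.4, 33.0 and 29.4 CPM in BR-IRGA 409 control. In IRGA 428 it had 17.1, 19.4 and 17.6 CPM in heat, against 13.6, 12.1 and 14.2 CPM in control. Heat and control libraries did not overlap in either cultivar, and they were apart in opposite directions. The log2 heat effects were −0.70 (SE 0.11, edgeR adjusted p = 0.0141) in BR-IRGA 409 and 0.44 (SE 0.12, edgeR adjusted p = 0.401) in IRGA 428. The rise in IRGA 428 was thus not called, and neither was the interaction of −1.14 (SE 0.16, edgeR adjusted p = 0.184). In IRGA 428 heat was called for 0 of 22321 genes, with 0.401 the smallest edgeR adjusted p, against 2646 called in BR-IRGA 409. The missing call in IRGA 428 is thus not particular to this gene. Without IRGA 428 control 3 and heat 1, heat was called for 1238 of 22892 genes in IRGA 428 and 4698 in BR-IRGA 409. For MH10g0388400, BR-IRGA 409 was above IRGA 428 by a log2 difference of 1.17 at 29 °C (edgeR adjusted p = 0.000116), while at 38 °C the difference was 0.03 (SE 0.11).

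MH01g0511700 had 22.6, 22.2 and 21.8 CPM in BR-IRGA 409 heat, against 38.6, 43.3 and 41.4 CPM in BR-IRGA 409 control. IRGA 428 had 27.2, 30.8 and 29.4 CPM in heat, against 25.5, 27.9 and 30.7 CPM in control. The cultivars changed places: BR-IRGA 409 was lower than IRGA 428 at 38 °C (log2 difference −0.39, edgeR adjusted p = 0.0311) and higher at 29 °C (0.55, edgeR adjusted p = 0.00702), with no overlap at either temperature. The interaction of −0.94 (SE 0.14, edgeR adjusted p = 0.184) did not pass the test. Heat effects were −0.89 (SE 0.10) in BR-IRGA 409 and 0.05 (SE 0.10) in IRGA 428. The 4 named genes, MH12g0324600 among them, were picked by the interaction in these same libraries. Their differences within a temperature or a cultivar are therefore no separate support for it. With DESeq2 on the same genes, all 4 named genes were called, with adjusted p from 2.28e-06 to 0.00327.

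**Figure D2:**
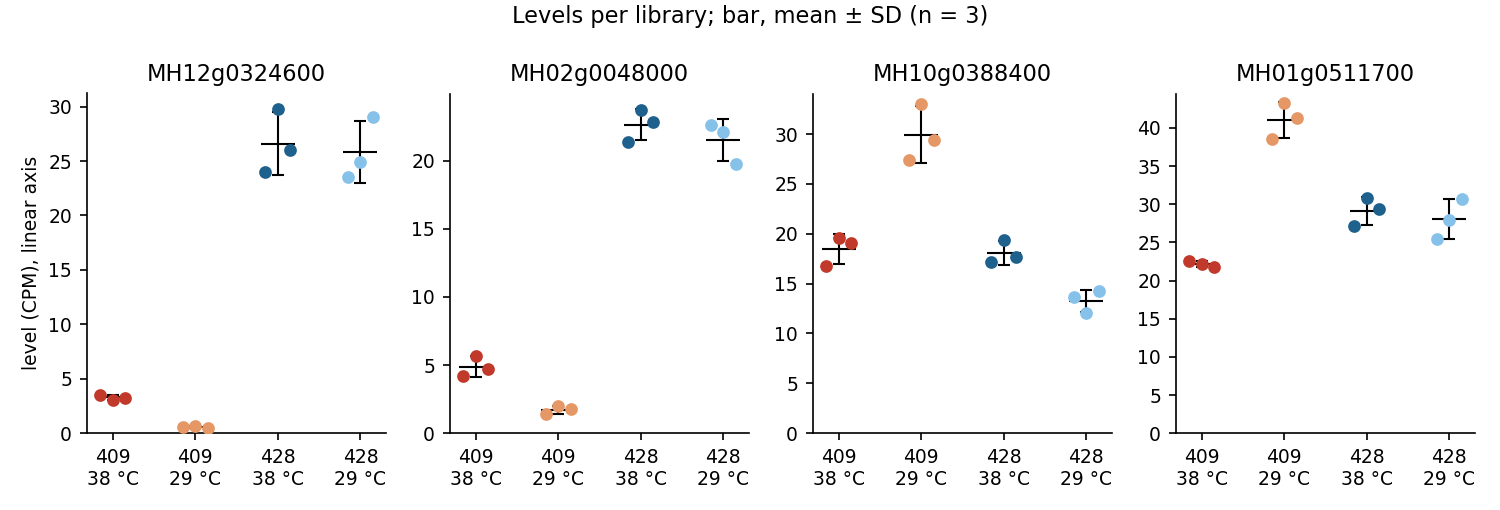
Levels in CPM (linear axes) of the 4 named genes in each library, by cultivar and temperature, with bars for mean ± SD (n = 3). MH12g0324600 and MH02g0048000 were scarce in BR-IRGA 409 and higher there in heat, while MH10g0388400 and MH01g0511700 were lower in heat in BR-IRGA 409 alone.

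For each named gene, the interactions of the 10 tested genes nearest in ID order were also read, on the reading that ID order follows position, which the files do not state. Their interactions ran from −1.63 to 1.02 around MH12g0324600, from −0.61 to 0.66 around MH02g0048000, from −0.39 to 0.83 around MH10g0388400 and from −0.997 to 0.73 around MH01g0511700. An unadjusted p below 0.05 was reached by 0 of 10 neighbours of each of the first 3 genes and by 2 of 10 of MH01g0511700, whose smallest unadjusted p was 0.00621 (edgeR adjusted p = 0.799). The lowest neighbour of MH01g0511700, at −0.997, lay slightly below the gene's own −0.94. An unadjusted p below 0.05 was reached by 5.54% of all genes tested and by 6.09% of those on chromosome number 1. Sets of 10 neighbours are too few to tell their counts apart from such shares, and no test was made of these counts.

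At an unadjusted p below 0.05 stood 1236 genes (5.54%), 642 with a positive interaction (2.88%) and 594 with a negative one (2.66%). Without IRGA 428 control 1 there were 1401 positive and 663 negative genes, and without control 3 there were 801 positive and 1070 negative. In 20 equal bins of p the number of genes ran from 961 to 1330, with 1236 in the lowest bin. The named genes apart from MH12g0324600 are thus the front of a list that did not pass, and what follows on the list is a description. Genes entered it by the difference between these same heat effects, a choice that by itself favours opposite signs and unequal effects. A share in the list above that of all genes is therefore not a separate result. In the list, BR-IRGA 409 had the larger absolute heat effect for 1110 genes (89.8%), against 66.2% of all genes tested. The median absolute log2 heat effect in the list was 0.802 in BR-IRGA 409 and 0.220 in IRGA 428. Over all genes it was 0.301 in BR-IRGA 409 and 0.210 in IRGA 428. With all libraries thinned to the smallest, the list held 1033 genes, of which 85.6% had the larger effect in BR-IRGA 409. Genes that went up in both cultivars, more so in BR-IRGA 409, were 378, and genes that went down in both, more so in BR-IRGA 409, were 275. The signs were opposite for 574 genes (46.4%), 260 up and 314 down in BR-IRGA 409, against 5313 (23.8%) of all genes tested. A larger effect of the same sign in IRGA 428 was found for 9 genes, 5 up and 4 down in both cultivars. Over all genes tested, 5952 went up and 5624 down in both with the larger effect in BR-IRGA 409, and 2331 went up and 2941 down with the larger effect in IRGA 428.

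**Figure D3:**
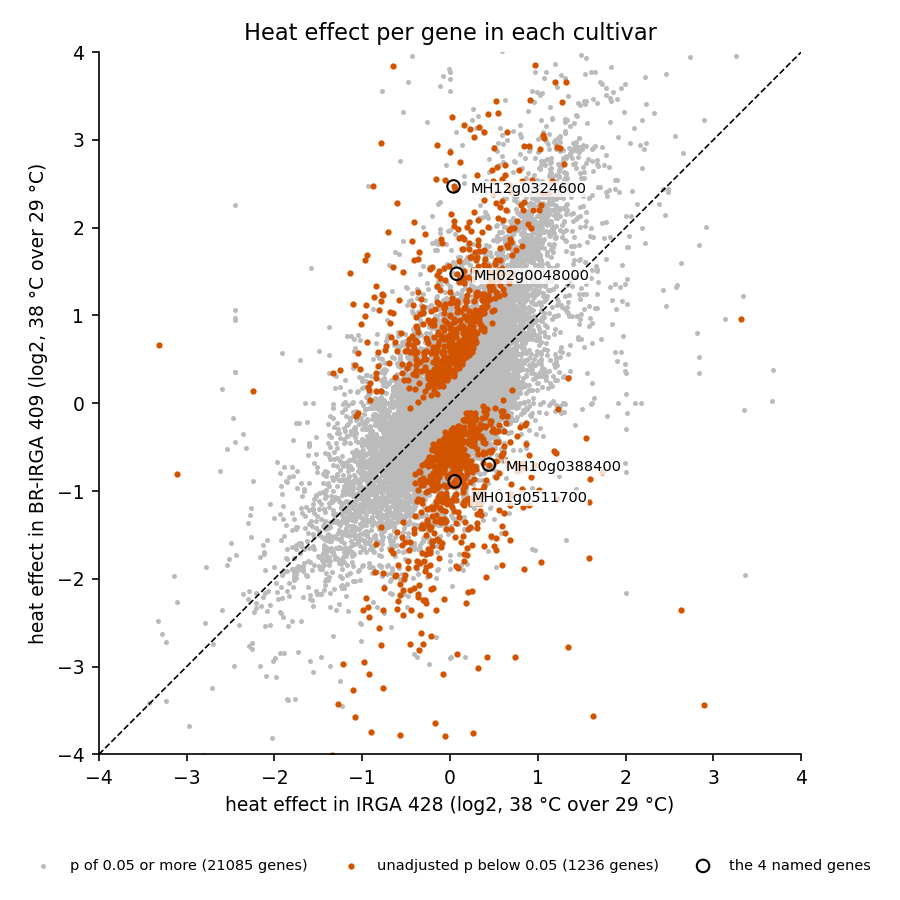
Log2 heat effect (38 °C over 29 °C) of each tested gene in BR-IRGA 409 (vertical) and IRGA 428 (horizontal), with genes at an unadjusted interaction p below 0.05 in orange, the 4 named genes circled and equality dashed. Axes end at −4 and 4, which leaves 112 genes outside, and the orange genes lie mostly above and below the centre, where the effect in BR-IRGA 409 is the larger.

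This one-sidedness went with the pair of close IRGA 428 libraries. Without control 3 and heat 1, 1756 genes had an unadjusted p below 0.05 and BR-IRGA 409 had the larger absolute heat effect in 841 of them (47.9%). Over all 22892 genes tested without the pair, that share was 50.7%. The median absolute heat effect in the list was 0.441 in BR-IRGA 409 and 0.481 in IRGA 428. Opposite signs were found for 1019 genes (58.0%) of the list, against 23.5% of all genes tested, and 707 of the list had a positive and 1049 a negative interaction. Over all genes tested, the spread of the heat effects (interquartile range of the log2 values) was 0.601 in BR-IRGA 409 and 0.422 in IRGA 428 with all libraries. Without the pair it was 0.614 in BR-IRGA 409 and 0.626 in IRGA 428. Leaving out control 3 alone moved the share to 50.6%, and leaving out heat 1 alone to 70.7%, while the other 10 single libraries gave 81.0% to 95.2%. Of the 1236 genes, 770 (62.3%) were again at p below 0.05 without the pair, which are 43.8% of the 1756. At a p below 0.001 there were 30 genes (0.134% of those tested), all with the larger effect in BR-IRGA 409. Without the pair there were 53 of 22892, 29 of them with the larger effect in BR-IRGA 409. The number called by edgeR was 0 without the pair.

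**Figure D4:**
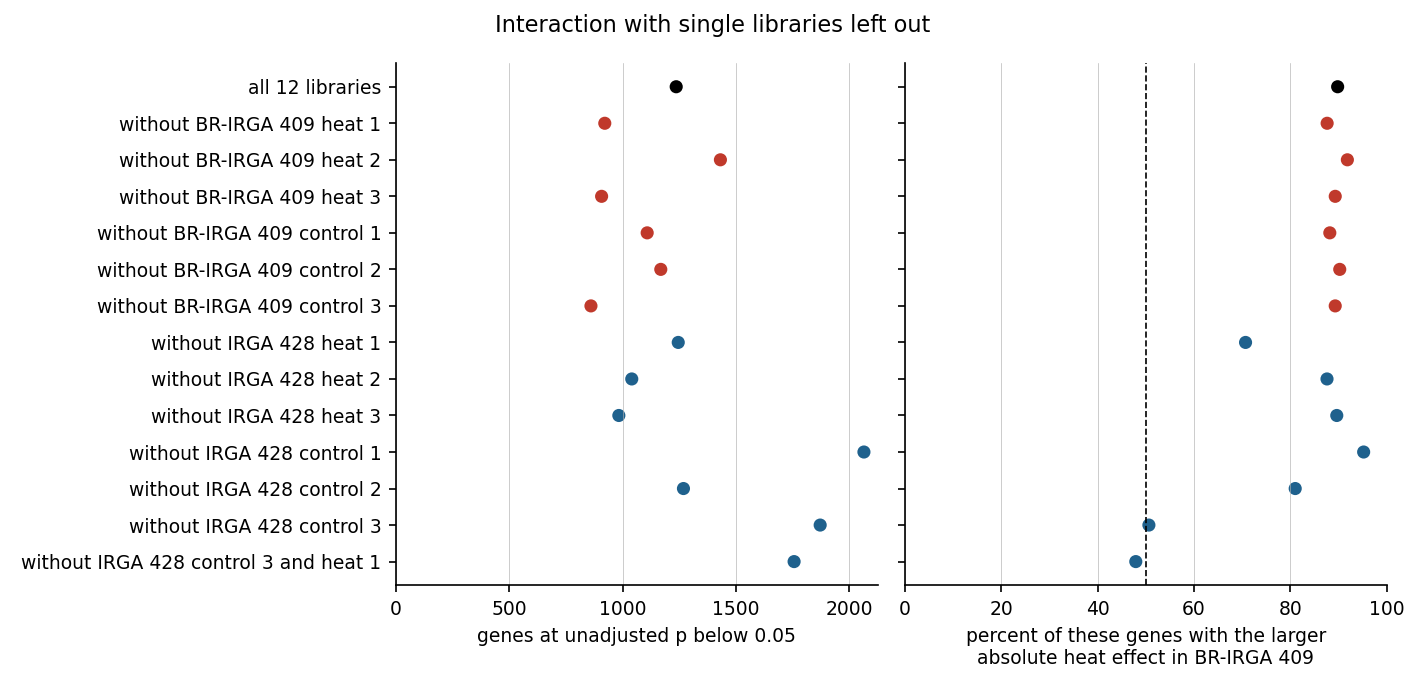
Number of genes at an unadjusted interaction p below 0.05 (left) and percent of them with the larger absolute heat effect in BR-IRGA 409 (right), with all 12 libraries (black), without each BR-IRGA 409 library (red) and without IRGA 428 libraries (blue). The percent stays near 90 without any BR-IRGA 409 library and is 50.6 without IRGA 428 control 3.

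The cultivars were more often closer at 29 °C than at 38 °C. The absolute log2 difference between the cultivars was smaller at 38 °C than at 29 °C for 42.9% of all tested genes and for 433 (35.0%) of the 1236. Its median in the 1236 genes was 0.550 at 38 °C and 0.322 at 29 °C, and over all genes it was 0.226 at 38 °C and 0.177 at 29 °C. Without IRGA 428 control 3 and heat 1 the share was 43.4% of the list (762 of 1756 genes), close to the 44.7% of all genes tested. The medians in that list were then 0.471 at 38 °C and 0.369 at 29 °C, and over all genes 0.245 at 38 °C and 0.201 at 29 °C. The 4 named genes belong to the smaller group, since in each the cultivars were closer at 38 °C.

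For most genes the data set a limit on the size of a difference. The median interaction was 0.01 on the log2 scale, the middle 50% of genes lay between −0.18 and 0.25, and the median SE was 0.298. For 12186 genes (54.6%) the 95% interval lay within −1 and 1, so a 2-fold difference between the heat effects was outside it, taking each gene by itself. Another 8969 genes had an interval that held 0 and reached 1 or −1, so that neither equality nor a 2-fold difference was outside it. For 310 genes the interval excluded 0 and lay within −1 and 1, and for 26 it lay wholly beyond 1 or −1. No interval was computed for 270 genes with 0 counts in at least 1 group, of which 99 had none in either BR-IRGA 409 group and 61 none in either IRGA 428 group. An estimate beyond 1 or −1 was obtained for 1736 genes, and 499 of these had an unadjusted p below 0.05.

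Precision followed abundance up to a point. The interval lay within −1 and 1 for 1.95% of genes with a mean log2 CPM below 1, for 30.8% from 1 to 3, for 71.2% from 3 to 5, for 80.9% from 5 to 7 and for 66.0% at 7 and above. An unadjusted p below 0.05 was reached by 5.85%, 6.11%, 5.55%, 5.01% and 5.05% of genes in the same order of classes. Counting error made up a median of 45.2% of the squared SE in the scarcest class and 1.15% in the most abundant, so for abundant transcripts the spread between libraries set the limit. IRGA 428 control libraries contributed the largest share of it. Over the 14405 genes at or above a mean log2 CPM of 3, they gave on average 41.4% of the summed within-group variance. BR-IRGA 409 heat gave 17.4%, BR-IRGA 409 control 19.9% and IRGA 428 heat 21.3%. The median SD of log2 CPM was 0.142 in BR-IRGA 409 heat, 0.154 in BR-IRGA 409 control, 0.162 in IRGA 428 heat and 0.236 in IRGA 428 control.

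**Figure D5:**
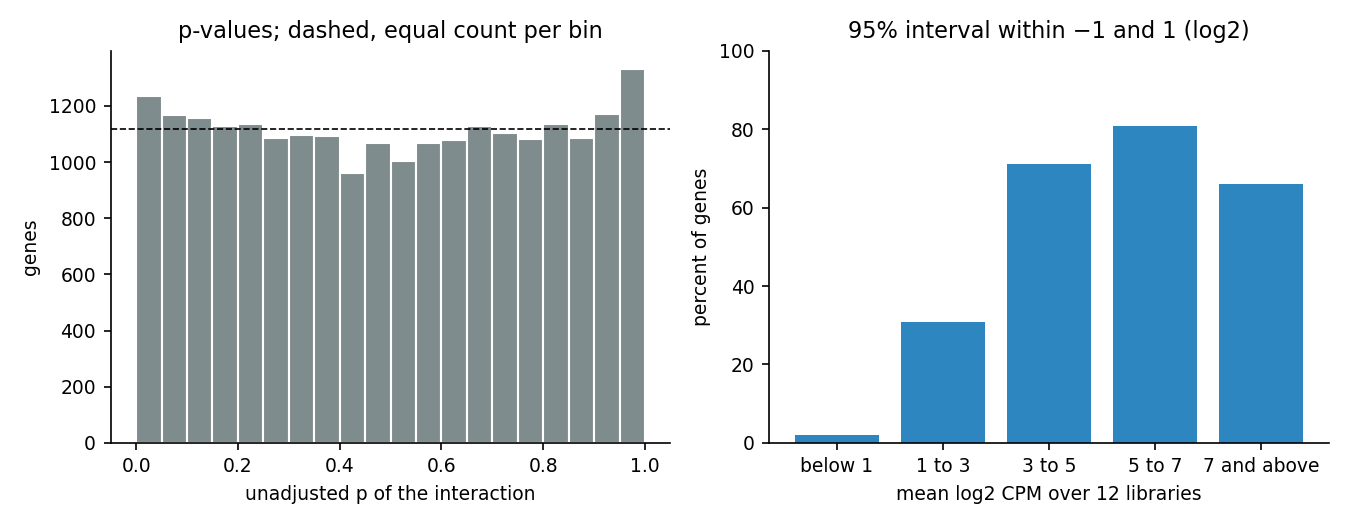
Left, number of genes per bin of unadjusted interaction p, with the equal count per bin dashed; right, percent of genes whose 95% interval lies within −1 and 1, by class of mean log2 CPM. The first bin holds 1236 genes and the last 1330, and the percent rises to 80.9 in the class from 5 to 7.

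Genes at an unadjusted p below 0.05 were found on every chromosome number read from the IDs, at shares of 4.25% (chromosome 7) to 7.21% (chromosome 11) of the genes tested there, beside 5.54% over all. Chromosome 12, which carries MH12g0324600, had 6.53%. No test was made of these shares.

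With DESeq2 on the same genes 42 of 22321 passed, 20 with a positive and 22 with a negative interaction, all at an unadjusted edgeR p of 0.00373 or below. Their absolute edgeR interactions ran from 0.505 to 3.76 with a median of 1.40, and 40 of the 42 reached a mean log2 CPM of 1. BR-IRGA 409 had the larger absolute heat effect in 39 of them (92.9%), against 66.2% of all genes tested. The median was 1.27 in BR-IRGA 409 and 0.238 in IRGA 428. DESeq2 was not run without IRGA 428 control 3 and heat 1, so whether this share holds without them was not tested. In 10 genes the transcript was up in BR-IRGA 409 and down in IRGA 428, in 14 the reverse, and in 18 both cultivars moved the same way with the larger effect in BR-IRGA 409. The signs were thus opposite in 57.1% of the 42, against 23.8% of all genes tested. DESeq2 called these genes by the difference between the same heat effects, so neither share is a separate result. Limma-voom called 0 genes, with 1227 at an unadjusted p below 0.05. With weights that let libraries differ in reliability it called 6, 1 positive and 5 negative, and 3 of the named genes were among them (MH12g0324600, MH10g0388400 and MH01g0511700). The smallest weights in that fit were those of IRGA 428 control 3 (0.274) and heat 1 (0.422), and the largest was that of BR-IRGA 409 heat 3 (4.10).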

How the data were processed

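Reads were processed with Trimmomatic 0.33, HISAT2 2.05 and HTSeq 0.6.1, per the submitters' processing notes; parameters, genome build and strand setting: not given in the sources used here. Each library's deposited file holds raw counts of reads per gene, and the 5 closing lines that name no gene (19.9% to 25.0% of a library) were left out. Reads with several alignments are among these, so genes with near-identical copies are uncertain, as are overlapping antisense genes.

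The interaction was fitted in edgeR 4.0.16 (R 4.3.3) with filterByExpr, TMM scaling, 1 mean per group over 12 libraries and the robust quasi-likelihood F-test. SEs are Wald values from that fit, and 95% intervals use its t quantiles. Spread between libraries used log2 CPM with a prior count of 2. Limma 3.58.1 (voom) and DESeq2 1.42.0 were alternatives. No label says that replicates came from separate sowings, so p-values measure the spread between these libraries.

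At most 2 IDs per direction were named, called genes first, then the smallest p among genes of mean log2 CPM 1 or more. The contrast, rule and checks were chosen with earlier results of these data known. Same-numbered libraries deviated together at 29 °C (correlations 0.317, 0.435 and 0.276 between the cultivars over 14405 genes). Each of the other pairs of groups held both signs. Their correlations ran from −0.498 (BR-IRGA 409 heat 2 and IRGA 428 control 2) to 0.709 (IRGA 428 heat 2 and control 2). Deviations were taken from the mean of 3 libraries, so the correlations of a pair of groups are not independent.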

Additional observations from a re-analysis of the deposited data

Results flagged for a closer look

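MH12g0324600 is listed because its heat effects differed between the cultivars by the interaction test itself, with a log2 value of 2.43 (edgeR adjusted p = 0.00955). All 3 BR-IRGA 409 heat libraries were above all 3 of its control libraries, and IRGA 428 libraries overlapped between temperatures. The gene was picked by the interaction in these same libraries, so this pattern is no separate support for it. Its BR-IRGA 409 control level rested on 18 counts, and it was called in 17 of 26 alternatives.

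The difference in sequencing depth between heat and control libraries was larger in BR-IRGA 409 than in IRGA 428 by 1.77 on the log2 scale (exact permutation adjusted p = 0.0375). The corresponding difference for the share of reads with several alignments was larger in BR-IRGA 409 by 1.09 percentage points (exact permutation adjusted p = 0.025).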

How the results depend on the processing

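The count of 1 called gene was 1 with edgeR under relative log expression or upper-quartile scaling, without a filter, with 1 CPM required in 3 libraries, without the robust option, with thinned libraries, and at thresholds of 0.01 and 0.1. It was 42 with DESeq2 (filtered genes or all listed genes), 0 with limma-voom, 6 with library quality weights, and 0 without IRGA 428 control 3 and heat 1. The replicate number as a block gave 0 called genes over all libraries, within each cultivar and among the 29 °C libraries, with adjusted p of 0.0877, 0.521 and 0.0549 for MH12g0324600. Leaving out single libraries gave 0 to 2 called genes. The 1236 genes at an unadjusted p below 0.05 became 860 to 2064 (2064 without IRGA 428 control 1 and 1871 without control 3) and 2215 with quality weights; the remaining settings stayed within 1.5 times. Their split of 642 positive and 594 negative became 1401 and 663 without IRGA 428 control 1, 801 and 1070 without control 3, 516 and 729 without heat 1, 707 and 1049 without both control 3 and heat 1, 496 and 731 with limma-voom, 957 and 1258 with quality weights and 563 and 634 with upper-quartile scaling. Genes with an interval within −1 and 1 numbered 10982 to 12923 in 22 settings (11117 to 12009 with single libraries left out), and the median interaction ran from −0.02 to 0.05 (−0.02 to 0.04). With single libraries left out, the difference between the heat effects was 1.49 to 2.09 for log2 depth, 0.881 to 1.27 points for reads with several alignments, −1.63 to 0.510 for reads outside genes (0.510 without BR-IRGA 409 control 2), −2.21 to −1.30 for the 100 most counted genes and 34.8 to 389 for genes with a count. The cause of these shifts was not tested. Intervals were widest for the scarce genes, with a median half-width of 1.54 (log2) below a mean log2 CPM of 1. Counting error made up a median of 45.2% of the squared SE in that class.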
